A study of Rattus norvegicus with 4 samples.

Results

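The expression of 10 genes of the 2 arms of the temperature response, the heat shock genes and the cold-inducible genes, was examined in the livers of rats under inhalational anesthesia. The genes were *Cirbp*, *Rbm3*, *Hspa1a*, *Hspa1b*, *Hspa8*, *Hsph1*, *Dnajb1*, *Hsp90aa1*, *Hspd1*, and *Hspb1*, chosen by symbol, and all 10 were found among the 16982 annotated genes shared by the 4 deposited tables. Liver RNA was sequenced from 4 wild-type male Wistar rats, purchased at 6 weeks of age, with 1 rat for each of 4 conditions. The rats inhaled 4.5% sevoflurane or 6.0% desflurane, both halogenated ether anesthetics, carried by 50% oxygen at 3 L/min. The livers came after 6 hours of anesthesia with either agent, or, for the control of each agent, right after the loss of consciousness, so that the controls had also inhaled the agent briefly. Food and water were withheld for 2 hours before anesthesia began, and the 6 hours of anesthesia added to that time. The time without food therefore also differed between the 6 hour livers and the controls. According to the methods of the study, the rats were killed at the same time of day, and the body temperature of anesthetized rats was kept within a set range near normal. Each condition has a single library, so no difference could be set against replicates, and no test was made.

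Heat shock genes encode chaperones, proteins that help other proteins to fold and that prevent their aggregation. Their transcription is increased by heat shock factor 1 (HSF1), which binds repeated GAA units, called heat shock elements, in their promoters when unfolded proteins accumulate. *Cirbp* and *Rbm3* encode RNA-binding proteins whose RNA increases when cells are cooled by a few degrees and decreases when they are warmed. In the rodent liver, both groups of genes are known to follow the daily rhythm of body temperature in opposite phases.

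Expression is given here in TPM, a level corrected for transcript length and library size. Aligned sequence amounted to between 4.47 and 5.40 Gb per library. Between 9474 and 9695 genes had TPM values higher than 2 in each library. Hepatocyte markers such as *Alb* were abundant in all 4 libraries, and the sum of the 8 markers was between 145870 and 161962 TPM. The median gene of the 9136 that exceeded 2 TPM in every library changed by 0.05 with sevoflurane and by 0.11 with desflurane on the log2(TPM + 1) scale. Values are not adjusted for these shifts, except where scaling by the median of ratios is named. The only measure of the difference between livers without prolonged anesthesia was that between the 2 controls. For 95% of genes it was smaller than 1.41-fold at control levels between 10 and 100 TPM, and smaller than 1.56-fold between 100 and 1000 TPM. Between 2 and 10 TPM, the corresponding limit was 1.54-fold. These limits were taken on the log2(TPM + 1) scale, on which differences at low levels are smaller than ratios of TPM.

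Promoter sequences were examined first, because heat shock genes are commonly recognized by their heat shock elements. RefSeq (build GRCr8) provided the sequence from 250 bases before to 50 bases after the annotated start for 8 of the 10 genes, and no entry was used for *Hspa1b* and *Hsp90aa1*. Both inverted pairs of the GAA unit, GAANNTTC and TTCNNGAA, were searched, and each reads the same on both strands. The pairs overlap when 3 units follow one another, which is GAANNTTC with NNGAA directly behind it, and this run of 3 units was searched on both strands. The promoters of *Hspa8*, *Hsph1*, *Dnajb1*, *Hspb1*, and *Cirbp* are shown here as the 250 bases before the start. The first 4 belong to genes with opposite directions under the 2 agents, and the last to a gene with the reverse pattern. Capitals mark the inverted pairs in the first 4 sequences and the octamer TCCCCGCC in *Cirbp*.
Hspa8 promoter (GRCr8, chr8:50080264-50080513, plus strand): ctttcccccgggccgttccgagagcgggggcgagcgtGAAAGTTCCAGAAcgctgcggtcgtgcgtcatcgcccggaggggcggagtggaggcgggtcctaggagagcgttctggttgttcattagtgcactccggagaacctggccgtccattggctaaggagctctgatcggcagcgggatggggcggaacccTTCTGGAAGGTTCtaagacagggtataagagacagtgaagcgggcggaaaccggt
Hsph1 promoter (GRCr8, chr12:10427118-10427367, plus strand): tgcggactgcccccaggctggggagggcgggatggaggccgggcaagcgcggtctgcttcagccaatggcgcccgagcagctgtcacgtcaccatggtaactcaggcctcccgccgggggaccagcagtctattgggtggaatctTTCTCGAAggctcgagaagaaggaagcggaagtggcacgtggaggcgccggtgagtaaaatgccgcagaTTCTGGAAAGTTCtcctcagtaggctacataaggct
Dnajb1 promoter (GRCr8, chr19:41431142-41431391, minus strand): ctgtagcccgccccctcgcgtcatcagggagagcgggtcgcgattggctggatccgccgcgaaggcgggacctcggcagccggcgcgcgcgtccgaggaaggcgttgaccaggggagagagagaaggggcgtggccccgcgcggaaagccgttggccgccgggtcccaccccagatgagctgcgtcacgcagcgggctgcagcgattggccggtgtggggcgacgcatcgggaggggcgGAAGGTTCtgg
Hspb1 promoter (GRCr8, chr12:26432302-26432551, minus strand): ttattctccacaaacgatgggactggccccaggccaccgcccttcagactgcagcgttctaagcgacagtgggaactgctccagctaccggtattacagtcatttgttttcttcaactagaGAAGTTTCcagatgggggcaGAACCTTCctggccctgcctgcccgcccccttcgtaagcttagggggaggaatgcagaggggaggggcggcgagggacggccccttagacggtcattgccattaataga
Cirbp promoter (GRCr8, chr7:10189476-10189725, minus strand): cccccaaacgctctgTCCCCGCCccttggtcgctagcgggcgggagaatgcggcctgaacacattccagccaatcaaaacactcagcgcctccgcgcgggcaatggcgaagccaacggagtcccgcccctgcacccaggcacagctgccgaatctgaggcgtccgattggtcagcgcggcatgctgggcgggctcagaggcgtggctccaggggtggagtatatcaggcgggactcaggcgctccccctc

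At least 1 inverted pair was present in 5 of the 8 promoters, those of *Hspa8*, *Hspd1*, *Hsph1*, *Hspb1*, and *Dnajb1*, compared with 15.9% of all 33469 promoters in the table. The run of 3 units was found in *Hspa8*, *Hspd1*, and *Hsph1*, compared with 0.798% of all promoters. In *Hspa8* it occurred at bases -213 to -201 and again at bases -55 to -43, and in *Hsph1* at bases -36 to -24, with a separate pair at bases -105 to -98. *Dnajb1* held a single pair before the start, at bases -11 to -4, and another after it, at bases 18 to 25. The promoters of *Cirbp*, *Rbm3*, and *Hspa1a* held no inverted pair in this window. The octamer TCCCCGCC, which has been described as a response element for mild cold, was present in *Cirbp* at bases -235 to -228 and in 4.79% of all promoters. It was absent from the windows of *Rbm3* and the heat shock genes. A match of letters does not show binding, and the absence of a match applies only to this window.

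**Figure D1:**
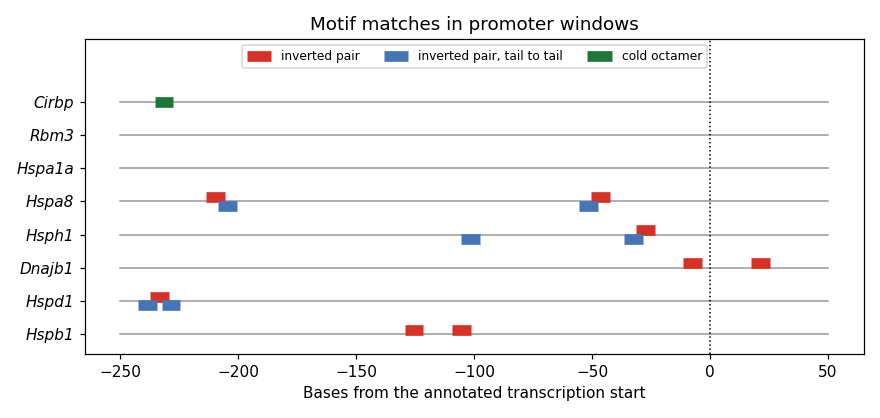
Position of motif matches in the promoter windows of the 8 genes with a RefSeq entry; the horizontal axis gives bases from the annotated start (dotted line). Red and blue blocks are the inverted pairs GAANNTTC and TTCNNGAA, and the green block is the octamer TCCCCGCC, which appears in *Cirbp* alone among these genes.

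The 10 genes covered a wide range of expression, with means over the 4 libraries between 0.212 TPM for *Hspa1a* and 282 TPM for *Hspa8*. The order of the means was *Hspa8*, *Hspd1*, *Hsp90aa1*, *Rbm3*, *Hsph1*, *Dnajb1*, *Cirbp*, *Hspb1*, *Hspa1b*, and *Hspa1a*. The ranges of *Rbm3*, *Hsph1*, *Dnajb1*, and *Cirbp* overlapped, so their order varied between libraries. The 2 stress-inducible HSP70 genes thus had the lowest values. The highest library exceeded the lowest more than 2-fold in 9 of the 10 genes, and the exception was *Hspd1* (1.29-fold). The 9 genes include *Hspa1a*, whose lowest library held almost no reads. The share of all genes with such a range was not determined, so this count has no background.

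**Figure D2:**
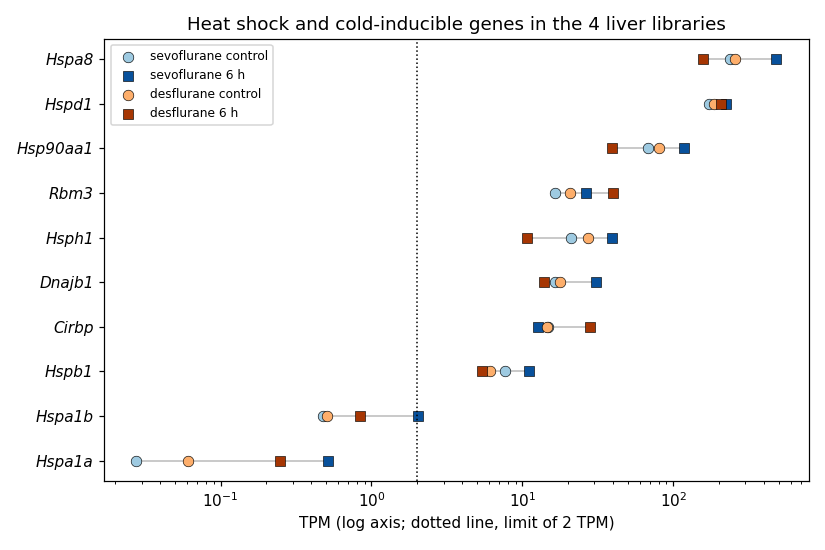
TPM of the 10 genes (log axis) in the 4 libraries, with circles for controls and squares for 6 hours, in blue for sevoflurane and in orange to brown for desflurane; the dotted line is the limit of 2 TPM. The 6 hour squares lie on opposite sides of both control circles for *Hspa8*, *Hsph1*, *Dnajb1*, *Hsp90aa1*, *Hspb1*, and *Cirbp*.

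*Hspa8* encodes HSC70, the constitutive member of the HSP70 family, which folds new proteins and uncoats clathrin vesicles. The controls of sevoflurane and desflurane had 237 and 255 TPM, and the livers after 6 hours had 482 (sevoflurane) and 156 TPM (desflurane). The 2 controls were close to each other, and the 6 hour libraries lay above them with sevoflurane and below them with desflurane. The increase with sevoflurane was 2.04-fold, and 1.02% of the 9136 genes had a change at least as high. With desflurane, it was 1.63-fold lower, and 1.98% of the genes had a change at least as low. Both differences exceeded the 1.56-fold limit of the controls. Against the control of the other agent, *Hspa8* was 1.89-fold higher with sevoflurane, which exceeded that limit, and 1.51-fold lower with desflurane, which did not.

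The value of *Hspa8* is the sum of 3 annotated rows of the rn6 genome, which were at chr8:44989401-44993261, chr11:13499164-13501263, and chr6:34553288-34555386. The rows on chromosomes 11 and 6 are shorter, with spans of 2100 and 2099 bases, and can share reads with the row on chromosome 8, so their separate values are uncertain. With sevoflurane, the row on chromosome 8 was 2.34-fold higher, that on chromosome 11 was 1.73-fold higher, and that on chromosome 6 was 1.79-fold higher. With desflurane, the same rows were 1.60-fold, 1.69-fold, and 1.63-fold lower than in the control. All 3 rows therefore had the same order of libraries, and the call of *Hspa8* as upregulated by more than 2-fold rested on the row on chromosome 8.

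*Hspa1a* and *Hspa1b* encode the stress-inducible HSP70 proteins, which are almost identical to each other, and their reads could have been split. In TPM, *Hspa1b* was at 0.480 and 0.511 in the controls of sevoflurane and desflurane, at 2.03 with sevoflurane for 6 hours, and at 0.842 with desflurane for 6 hours. The value after sevoflurane was only just higher than 2 TPM, the limit for a call, and was 4.22-fold higher than in its own control and 3.97-fold higher than in the other control. With desflurane, *Hspa1b* was 1.65-fold higher than in its own control. The row of *Hspa1b* (rn6 chr20:4875834-4881751, minus strand) encloses another row, LOC108348108 (rn6 chr20:4877324-4879779, minus strand). RefSeq now lists the gene with this number as *Hspa1b*. Its TPM values were 0.750, 4.48, 0.859, and 1.24 in the sevoflurane control, the sevoflurane 6 hour library, the desflurane control, and the desflurane 6 hour library, a 5.98-fold increase with sevoflurane and a 1.45-fold higher value with desflurane.

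In TPM, *Hspa1a* was at 0.0278 and 0.0609 in the controls of sevoflurane and desflurane, at 0.513 with sevoflurane for 6 hours, and at 0.247 with desflurane for 6 hours. Over the full span of the row (rn6 chr20:4955668-4959762, minus strand), these values correspond to no more than 2.02 and 4.63 reads of full length in the controls, 35.2 with sevoflurane, and 16.9 with desflurane. Both 6 hour libraries were thus above both controls, and no fold change is given because the controls held almost no reads. The start of the row overlaps that of *Hspa1l* on the opposite strand, and whether the counting used the strand is not given in the sources used here.

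*Hsph1* encodes HSP105 (HSP110), which releases nucleotides from HSP70 and helps it to dissolve aggregates. Among the 4 libraries, *Hsph1* was at 21.1 (sevoflurane control), 39.3 (sevoflurane, 6 hours), 27.3 (desflurane control), and 10.8 TPM (desflurane, 6 hours). Of the 9 of the 10 genes that reached 2 TPM in any library, *Hsph1* differed most between the agents, with the 6 hour value of desflurane 3.65-fold lower than that of sevoflurane. Relative to its own control, *Hsph1* (rn6 chr12:6322685-6341898, minus strand) was 1.86-fold higher with sevoflurane and 2.54-fold lower with desflurane, and 0.449% of the 9136 genes had a change with desflurane at least as low. Against the control of the other agent, the differences were 1.44-fold and 1.96-fold, in the same directions. The desflurane control was 1.30-fold higher than the sevoflurane control, so the size of these differences depended on the control.

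*Dnajb1* (rn6 chr19:24747178-24750919, plus strand) encodes HSP40, a J-domain protein that delivers substrates to HSP70 and stimulates its ATPase. The controls of sevoflurane and desflurane had 16.4 and 17.8 TPM, and the livers after 6 hours had 30.5 (sevoflurane) and 13.8 TPM (desflurane). The sevoflurane library stood apart from the other 3, with a value 1.85-fold higher than in its own control and 1.72-fold higher than in the other. With desflurane, *Dnajb1* was 1.28-fold lower than in its own control and 1.19-fold lower than in the other, which is within the 1.41-fold limit of the controls.

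*Hsp90aa1* encodes HSP90 alpha, the inducible cytosolic HSP90, which keeps kinases and steroid receptors in an active form. In TPM, *Hsp90aa1* was at 68.1 and 80.1 in the controls of sevoflurane and desflurane, at 117 with sevoflurane for 6 hours, and at 39.5 with desflurane for 6 hours. The libraries had the same order as for *Hsph1*. The difference was 1.72-fold upward with sevoflurane and 2.03-fold downward with desflurane, and 0.843% of the genes had a change with desflurane at least as low. The sum includes 2 rows on chromosome 6 of rn6 with the same span of 5529 bases, at chr6:135044841-135050369 and chr6:135107265-135112793. The first lies within *Dync1h1*, which is on the opposite strand and differed by 1.07-fold with sevoflurane and by 1.12-fold with desflurane. Both rows were higher with sevoflurane (1.73-fold and 1.72-fold) and lower with desflurane (1.77-fold and 2.27-fold).

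**Figure D3:**
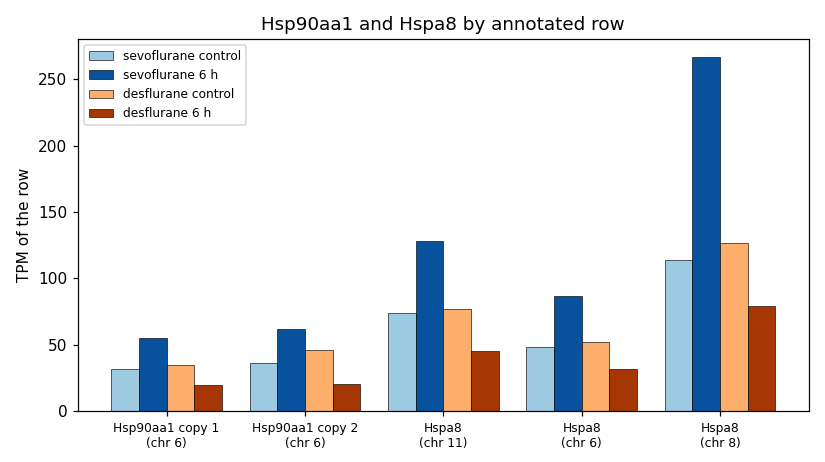
TPM of each annotated row of *Hsp90aa1* and *Hspa8* in the 4 libraries (bars start at 0, 1 bar per library, no replicates). In all 5 rows, 6 hours of sevoflurane gave the tallest bar and 6 hours of desflurane the shortest.

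*Hspd1* (rn6 chr9:61680530-61690956, minus strand) encodes HSP60, the chaperonin of the mitochondrial matrix. Sevoflurane for 6 hours gave 222 TPM and desflurane for 6 hours gave 207 TPM, with 172 and 185 TPM in their respective controls. Both 6 hour libraries were above both controls, but by no more than 1.29-fold with sevoflurane and 1.20-fold with desflurane, within the limit of the controls.

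*Hspb1* (rn6 chr12:23839390-23841051, minus strand) encodes HSP27, a small heat shock protein that holds unfolded proteins and stabilizes actin. Among the 4 libraries, *Hspb1* was at 7.62 (sevoflurane control), 11.0 (sevoflurane, 6 hours), 6.10 (desflurane control), and 5.38 TPM (desflurane, 6 hours). It was 1.44-fold higher with sevoflurane and 1.13-fold lower with desflurane than in the respective control, both within the 1.54-fold limit of the controls at this level. Against the control of the other agent, *Hspb1* was 1.8-fold higher with sevoflurane, which exceeded that limit, and 1.42-fold lower with desflurane, which did not. After 6 hours, the desflurane library was 2.05-fold lower than the sevoflurane library.

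*Cirbp* (rn6 chr7:12401205-12405022, minus strand) encodes the cold-inducible RNA-binding protein, which binds the RNAs of clock genes among others. The controls of sevoflurane and desflurane had 14.8 and 14.5 TPM, and the livers after 6 hours had 12.6 (sevoflurane) and 28.0 TPM (desflurane). The 2 controls were nearly the same, and the desflurane library alone stood apart. *Cirbp* was 1.92-fold higher with desflurane than in its own control and 1.88-fold higher than in the other control, just under the 2-fold limit, and 2.23% of the 9136 genes had a change at least as high against the own control. With sevoflurane, *Cirbp* was 1.17-fold lower than in its own control, within the limit of the controls. After 6 hours, it was 2.21-fold higher with desflurane than with sevoflurane. *Cirbp* was the single gene of the 10 with the sevoflurane library below and the desflurane library above both controls, an order shared by 11.2% of the 9993 genes with a TPM value higher than 2 in at least 1 library.

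*Rbm3* (rn6 chrX:15098904-15102339, plus strand) encodes the other cold-inducible RNA-binding protein, which is known to support protein synthesis in the cold. In TPM, *Rbm3* was at 16.3 and 20.5 in the controls of sevoflurane and desflurane, at 26.2 with sevoflurane for 6 hours, and at 39.7 with desflurane for 6 hours. Both 6 hour libraries were above both controls, and desflurane gave the highest value. The difference with desflurane was 1.93-fold against its own control and 2.43-fold against the sevoflurane control, and both were larger than the limit of the controls. With sevoflurane, *Rbm3* was 1.61-fold higher than in its own control but 1.28-fold higher than in the desflurane control. The latter is within the 1.41-fold limit of the controls. The 2 cold-inducible genes had the same direction with desflurane. With sevoflurane their directions were opposite, but the decrease of *Cirbp* was within the limit of the controls.

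**Figure D4:**
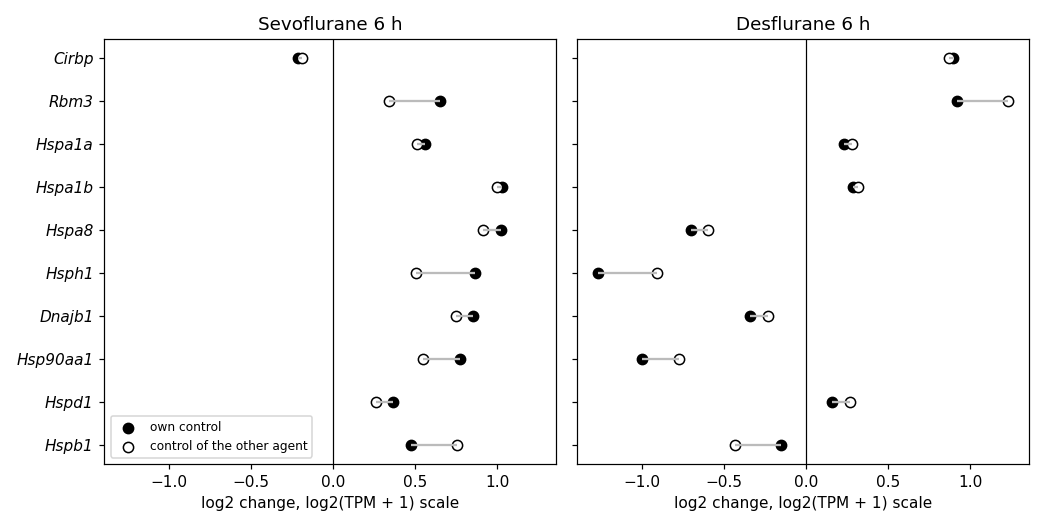
Difference in log2(TPM + 1) between each 6 hour library and its own control (filled circles) or the control of the other agent (open circles) for the 10 genes, 1 library each. The choice of control shifted the values but moved none of the 10 genes across 0 with either agent.

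The calling rule of the study was applied next, in which a gene is upregulated or downregulated when its TPM value is higher than 2 in the higher state and differs more than 2-fold from the control. With sevoflurane, 9 of the 10 genes could pass, and *Hspa1b* and *Hspa8* were upregulated, compared with 2.23% of the 9754 genes tested. None of the 10 was downregulated, compared with 3.30% of all genes. *Hspa8* was just past the limit, and its call was lost after scaling by the median of ratios, where its log2 change was 0.97. With desflurane, 8 genes could pass, and *Hsph1* and *Hsp90aa1* were downregulated, compared with 1.48% of the 9855 genes tested. No gene of the 10 was upregulated, compared with 2.79% of all genes, and *Cirbp* and *Rbm3* stayed just under the limit. Among all genes, 275 were upregulated and 146 downregulated by desflurane, and these counts became 197 and 196 after scaling by the median of ratios. Against the control of the other agent, *Hspa1b* was upregulated by sevoflurane, compared with 2.52% of all genes, and *Rbm3* by desflurane, compared with 2.84%. None was downregulated in these comparisons, in which 2.59% (sevoflurane) and 1.58% (desflurane) of all genes were. The controls did not differ more than 2-fold in any of the 8 genes that could pass, compared with 1.17% of all genes in each direction.

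After 6 hours, the libraries of the 2 agents, which share no control in this comparison, differed more widely. The desflurane library was more than 2-fold lower in 6 of the 9 genes that could pass, compared with 1.17% of the 9829 genes tested. These were *Hsph1*, *Hspa8* (3.08-fold), *Hsp90aa1* (2.97-fold), *Hspa1b* (2.41-fold), *Dnajb1* (2.21-fold), and *Hspb1*. *Cirbp* was more than 2-fold higher with desflurane, compared with 2.76% of all genes, and *Rbm3* was 1.51-fold higher. All 8 heat shock genes were lower with desflurane than with sevoflurane, whereas 58.7% of the 9993 genes above 2 TPM in any library were higher. The median log2 difference of the 8 genes was -1.0, compared with 0.05 for all genes.

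The order of the 4 libraries was also compared. All 8 heat shock genes were higher after 6 hours of sevoflurane than in both controls. Including *Rbm3*, this order was found in 8 of the 9 genes with a TPM value higher than 2 in at least 1 library, compared with 46.1% of all genes. The sevoflurane library was the highest of the 4 for 7 of the 9 genes, compared with 28.2% of all genes, and the desflurane library was the highest for *Cirbp* and *Rbm3*, compared with 38.3%. The desflurane library was above both controls for 4 of the 9 genes, compared with 53.7% of all genes, and both 6 hour libraries were below both controls for 0 of the 9, compared with 13.3%. The sevoflurane library above and the desflurane library below both controls was the order of *Hspa8*, *Hsph1*, *Dnajb1*, *Hsp90aa1*, and *Hspb1*, compared with 5.82% of all genes. This order by itself makes the desflurane library the lowest of the 4 for these 5 genes, and it was the lowest for 15.0% of all genes. No other gene of the 10 had a desflurane value below both controls, which 23.2% of all genes had. When the higher value of each of these gaps was required to exceed the lower by more than 25%, *Hspa8*, *Hsph1*, and *Hsp90aa1* remained, and this was the order of 31 of the 9993 genes (0.310%). Both 6 hour libraries were above both controls for *Rbm3*, *Hspa1a*, *Hspa1b*, and *Hspd1*, of which 3 were among the 9 genes, compared with 33.3% of all genes. The median log2 change of the 8 heat shock genes was 0.81 with sevoflurane and -0.25 with desflurane. For the 2 cold-inducible genes it was 0.22 and 0.91.

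The wider chaperone network was examined with 9 lists of other genes, of which 73 had TPM values higher than 2 in at least 1 library. Sevoflurane upregulated and downregulated none of the 73 genes more than 2-fold, and 54 of them (74%) were higher than in the control, compared with 56.3% of all 9993 genes, with a median log2 change of 0.19. Desflurane downregulated 1 gene, upregulated none, and 38 genes (52.1%) were higher than in the control, compared with 66.4% of all genes, with a median of 0.02. The shares of all genes called are those given above, and the counts of higher genes in the single lists are to be set against 56.3% and 66.4%. With the controls exchanged, sevoflurane upregulated *Bag3*, a co-chaperone of HSP70 (2.06-fold), and desflurane changed none of the 73 genes more than 2-fold. The sevoflurane library was above and the desflurane library below both controls in 17 of the 73 genes (23.3%), compared with 5.82% of all genes. These included members of the cytosolic chaperone machinery such as *Hspa4*, *Hsp90ab1*, *Dnaja1*, *Hspb8*, *Stip1*, *Ahsa1*, and *Chordc1*. This order was counted without a minimum gap, and many of the gaps were small. With desflurane, the change of each of these named genes from its own control was within the limit of the controls. With each gap above 25%, only *Stip1* and *Chordc1* of the 73 genes kept the order, compared with 0.310% of all genes.

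**Figure D5:**
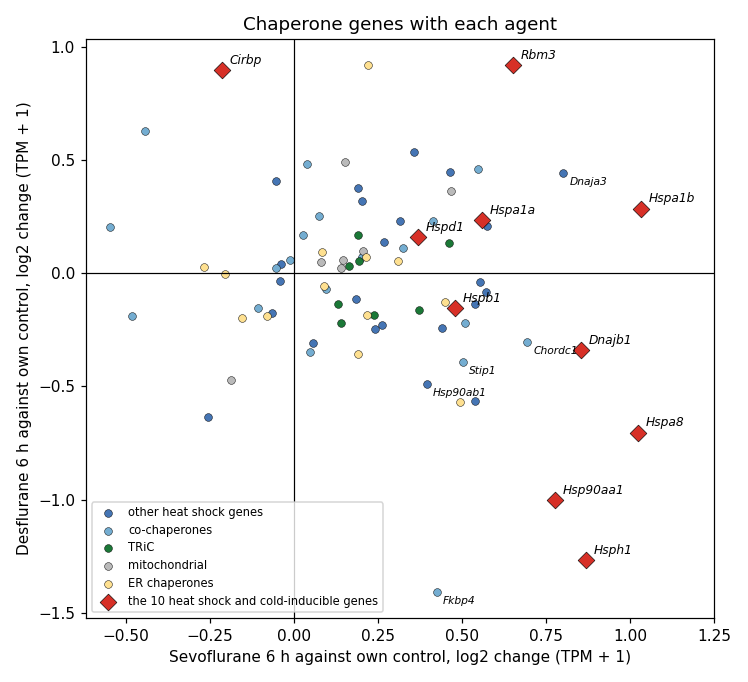
Log2 change, on the log2(TPM + 1) scale, with sevoflurane (horizontal) and desflurane (vertical) against the respective control for the 10 genes (red diamonds) and the listed chaperone genes (circles by class, without the heat shock factors). *Hsph1*, *Hsp90aa1*, and *Hspa8* lie at the lower right with *Fkbp4*, most circles lie near the centre, and *Cirbp* and *Rbm3* lie at the top, level with 1 chaperone of the endoplasmic reticulum.

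The gene downregulated by desflurane was *Fkbp4*, which encodes the HSP90 co-chaperone FKBP52. Sevoflurane for 6 hours gave 62.4 TPM and desflurane for 6 hours gave 24.4 TPM, with 46.3 and 66.3 TPM in their respective controls. The sevoflurane library was within the range of the controls, and the desflurane library was 2.72-fold lower than its own control. Against the sevoflurane control it was 1.90-fold lower, which is under the limit for a call. *Stip1*, which bridges HSP70 and HSP90, was at 32.8 and 30.9 TPM in the controls, 46.8 TPM with sevoflurane, and 23.3 TPM with desflurane. *Chordc1*, another HSP90 co-chaperone, was at 13.1 and 12.3 TPM in the controls, 21.9 TPM with sevoflurane, and 9.75 TPM with desflurane. Between the 6 hour libraries, these 3 genes were more than 2-fold lower with desflurane, by 2.56-fold, 2.01-fold, and 2.24-fold. Of the 19 co-chaperones, 13 were higher with sevoflurane and 11 with desflurane than in the respective control. The most abundant co-chaperones, *St13* and *Ptges3*, differed little, with values between 108 and 121 TPM and between 93.2 and 116 TPM.

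*Hsp90ab1* encodes the constitutive HSP90 beta. The controls of sevoflurane and desflurane had 320 and 341 TPM, and the livers after 6 hours had 422 (sevoflurane) and 243 TPM (desflurane). These values followed the order of *Hsp90aa1* with smaller differences, of 1.32-fold and 1.40-fold. The mitochondrial *Trap1* was between 93.6 and 96.6 TPM in all libraries. In the HSP70 family, *Hspa9*, the mitochondrial HSP70, was at 189 and 180 TPM in the controls and 1.20-fold higher with sevoflurane than in its control, and lay between 180 and 227 TPM overall. *Hspa4*, a relative of *Hsph1*, was 1.20-fold higher with sevoflurane and 1.18-fold lower with desflurane. All 5 other HSP70 genes above 2 TPM were higher with sevoflurane. None of the 5 was called with either agent.

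*Dnaja1* encodes a J-domain partner of HSC70. Sevoflurane for 6 hours gave 185 TPM and desflurane for 6 hours gave 123 TPM, with 126 and 126 TPM in their respective controls. The sevoflurane library was 1.47-fold higher than its control, within the 1.56-fold limit of the controls at this level. The desflurane library was close to both controls. The mitochondrial *Dnaja3* was 1.76-fold higher with sevoflurane and 1.37-fold higher with desflurane. Of the 12 other DNAJ genes, 9 were higher with sevoflurane and 7 with desflurane. Among the other small heat shock genes, *Hspb8*, a partner of the co-chaperone BAG3, was 1.36-fold higher with sevoflurane and 1.19-fold lower with desflurane. *Hspb6* was between 3.14 and 5.58 TPM.

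All 8 subunits of TRiC, the cytosolic chaperonin that folds actin and tubulin, were higher with sevoflurane, with a median log2 change of 0.19, and 4 were higher with desflurane. *Tcp1* was between 73.4 and 104 TPM, and *Cct5* between 60.7 and 75.0 TPM, both lowest with desflurane and highest with sevoflurane. In the mitochondrial list, 6 of 7 genes were higher with each agent. *Hspe1*, the partner of *Hspd1*, was between 109 and 134 TPM, and *Clpx* was between 90.1 and 132 TPM. Of the 13 chaperones of the endoplasmic reticulum, 9 were higher with sevoflurane and 5 with desflurane. *Hspa5* (BiP) was 1.37-fold higher with sevoflurane and 1.09-fold lower with desflurane, and *Calr* was 1.11-fold and 1.15-fold lower.

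No gene of the heat shock factors was called with either agent. *Hsf2* was between 18.6 and 23.7 TPM, and *Hsbp1*, which encodes a binding protein of HSF1, was between 66.9 and 81.1 TPM. *Hsf1* was between 7.21 and 9.80 TPM. HSF1 is controlled largely after translation, which RNA levels do not show.

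On the side of the cold response, 4 genes of cold shock domain proteins had TPM values higher than 2. Sevoflurane downregulated *Carhsp1*, which encodes a calcium-regulated phosphoprotein. It was at 77.4 and 78.2 TPM in the controls, 38.1 TPM with sevoflurane (2.03-fold lower), and 56.7 TPM with desflurane (1.38-fold lower). *Ybx1* was between 95.6 and 117 TPM. None of the 19 genes for other Rbm and SR proteins and the kinases that act on SR proteins was called with either agent, compared with 2.23% higher and 3.30% lower of all genes for sevoflurane and 2.79% and 1.48% for desflurane. Of the 19 genes, 18 were higher with sevoflurane and 11 with desflurane, compared with 56.3% and 66.4% of all genes. The exception with sevoflurane was *Srsf5*, the most abundant, which was at 126 and 133 TPM in the controls, 87.6 TPM with sevoflurane, and 168 TPM with desflurane. This was the same order as for *Cirbp*. *Srsf2* was between 75.1 and 83.0 TPM.

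The genes with the most similar pattern were sought by the root mean square difference of centred log2(TPM + 1) values over the 4 libraries among the 9136 genes. For *Hsph1*, the nearest genes were *Otub2* (0.08), *Hsp90aa1* (0.10), and *Hspa8* (0.21). For *Hsp90aa1*, they were *Hsph1* (0.10), *Htatip2* (0.14), and *Otub2* (0.14). *Hspa8* was nearest to *Htatip2* (0.09), *Bco1* (0.11), and *Mrpl49* (0.13). The genes nearest to *Dnajb1* were *Atp6v0e2* (0.02), *Sult1e1* (0.06), and *Chordc1* (0.08). Chaperone genes were thus among the 3 nearest for *Hsph1*, *Hsp90aa1*, and *Dnajb1*, and these values are a description over 4 libraries.

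For the cold-inducible genes, the nearest genes to *Cirbp* were *Slc49a4* (0.05), *Sox18* (0.06), and *Hps4* (0.06). Those nearest to *Rbm3* were *Bcl6b* (0.05), *Hsd17b7* (0.06), and *Lepr* (0.08). *Cirbp* and *Rbm3* were not among the 3 nearest genes of each other. The genes nearest to *Hspb1* were *Ogg1* (0.02), *Cars* (0.04), and *Crb3* (0.05). For *Hspa1b*, they were *Ghitm* (0.05), *Ndc1* (0.06), and *Dip2a* (0.06), and for *Hspa1a*, *Ankrd27* (0.02), *Emc6* (0.02), and *Lin7c* (0.02). At the low levels of the last 2 genes, the pseudocount of 1 TPM reduces the pattern.

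Markers of some other cells of the liver were lower with sevoflurane than in its control, and fewer cells of a type and less RNA per cell cannot be told apart in whole tissue. All 6 macrophage markers were lower with sevoflurane than in the control, and their summed level was 322 TPM after 6 hours of sevoflurane, compared with between 401 and 504 TPM in the other 3 libraries. The 5 leukocyte markers summed to 6.88 TPM after 6 hours of sevoflurane and to between 12.9 and 19.1 TPM in the others. The direction of these lists with sevoflurane was opposite to that of the heat shock genes. Endothelial markers summed to between 122 and 147 TPM, stellate cell markers to between 256 and 287 TPM, and bile duct markers to between 11.0 and 16.9 TPM. Red blood cell markers summed to 46.7 TPM after 6 hours of desflurane and to between 78.7 and 111 TPM in the others. Pancreatic markers summed to 21.1 TPM in the sevoflurane control and to no more than 0.0384 TPM in the others. The part of these cells in the differences of the 10 genes was not tested.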

How the data were processed

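RNA from the left lateral liver lobe was sequenced in 4 libraries, 1 per condition, and samples were grouped by their GEO titles. The authors trimmed reads with sickle, mapped them to rn6 with HISAT2, sorted them with SAMtools, and ran StringTie with the rn6 refGene annotation. In the deposited tables, the TPM column is a signal on which the assembled rows sum to a fixed total and the annotated rows are added, coverage is the average read depth over the exons, and FPKM is scaled to library size. Aligned sequence was derived from the median ratio of coverage to FPKM. No read counts per gene were used here, so no counting intervals are given. The paper and the labels name different Illumina kits for total RNA.

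Assembled rows and rows of 200 bases or shorter were removed, and TPM values were summed per gene symbol, which left 16982 genes present in all 4 tables. Calls followed the rule of the study (TPM higher than 2 in the higher state, more than 2-fold). Log2 changes used a pseudocount of 1 TPM and understate changes of low genes. The share of all genes with a TPM value higher than 2 in either library that were called is given as background. No test was made. Named genes are the 10 genes, the called and the 2 most abundant genes of each list, and the 3 genes of most similar pattern; other listed genes in the text were picked with their values known. The 10 genes and the lists were chosen with earlier results of these data known. *Hsf5*, *Clpp*, *Lin28b*, *Cd79a*, and *Krt7* were listed but not analysed here. A result that the naming rule selected is not reported here.

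Alternatives covered the control, scaling, unit, row filter, row choice, limits, and pseudocount. The code of the calling rule was run on simulated data for both comparisons with their own control, each with 16982 genes. It recovered 200 of 200 genes changed 4-fold with 0 false calls. The changed genes were above 10 TPM, and the simulated noise was much smaller than the difference between the 2 controls. This outcome therefore checks the code and gives no rate of false calls for these data. Scripts ran under Python 3.11.15 with pandas 2.3.3 and numpy 2.4.6, and matplotlib 3.10.9 drew the figures.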

Additional observations from a re-analysis of the deposited data

Results flagged for a closer look

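For 6 of the 10 genes, the log2 change against the respective control had opposite signs with the 2 agents, and with 1 library per condition this difference was not tested. The share of all genes with opposite signs was not determined. Within the limit of the controls were the changes of *Dnajb1* with desflurane, of *Cirbp* with sevoflurane, and of *Hspb1* with both agents. The change with desflurane minus the change with sevoflurane was -2.14 for *Hsph1*, -1.78 for *Hsp90aa1*, -1.73 for *Hspa8*, -1.19 for *Dnajb1*, and -0.63 for *Hspb1* on the log2(TPM + 1) scale. For *Cirbp*, it was 1.11. The signs were also opposite with the controls exchanged.

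The rows that StringTie assembled over the same loci on the same strand were not used in the comparisons. They can hold the same reads as the annotated rows, as for *Hsph1*, with 21.1 TPM in both in the sevoflurane control. They exceeded the higher control more than 2-fold in 5 cases, and decreases were not sought by this rule. Over *Hsp90aa1*, assembled rows had 39.5 TPM after 6 hours of desflurane, compared with 99.6 and 160 TPM in the sevoflurane and desflurane controls. Over *Hspa1a*, an assembled row had 3.26 TPM after 6 hours of sevoflurane, and no such row was listed in the other libraries. Over *Hspa1b*, assembled rows had 4.65 TPM after 6 hours of sevoflurane and 1.57 TPM after 6 hours of desflurane, compared with 0.653 and 0.604 TPM in the controls. Over *Rbm3*, the assembled row had 39.9 TPM after 6 hours of desflurane, compared with 13.1 and 9.76 TPM in the controls. Over the 3 rows of *Hspa8*, assembled rows summed to 885 TPM after 6 hours of sevoflurane, compared with 414 and 389 TPM in the controls. Over *Hspa8* there were 5 such rows after 6 hours of desflurane and 4 in each other library.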

How the results depend on the processing

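The counts near the 2-fold limit depended most on the settings. With sevoflurane, 2 genes were called, and 1 was called with the control of the other agent, with the mean of the 2 controls, after median-of-ratios scaling, and with a limit of 10 TPM, 0 with FPKM, and 6 with a 1.5-fold limit. The call lost was that of *Hspa8*, except with the limit of 10 TPM, where it was that of *Hspa1b*, and with FPKM, where it was both. With desflurane, 2 genes were called, 1 with the control of the other agent, 2 with the mean of the 2 controls (1 higher and 1 lower in place of 2 lower), and 5 (2 higher and 3 lower) with a 1.5-fold limit. The control of the other agent ended the calls of *Hsph1* and *Hsp90aa1*, and *Rbm3* was then called higher. The median log2 change of the 10 genes with sevoflurane was 0.71, and it became 0.53 with the controls exchanged, 0.63 with the mean of the 2 controls, 0.57 with FPKM, 0.84 without a pseudocount, and 0.84 with a pseudocount of 0.1 TPM. With desflurane it was 0.00186, and -0.12 after median-of-ratios scaling. For both 6 hour libraries against the control of the other agent, 2 calls in all became 4 with FPKM and 9 with a 1.5-fold limit. The shares of all genes called with FPKM or with the 1.5-fold limit were not determined, so the counts at these settings have no background. The order with sevoflurane above and desflurane below both controls was kept by 5 genes under median-of-ratios scaling, FPKM, and the row with the highest mean, and by 3 with each gap above 25%. FPKM is not adjusted for the composition of the libraries, and the median of all genes between the 6 hour libraries was then -0.15. Between the 6 hour libraries, 7 of the 10 genes differed more than 2-fold, and under median-of-ratios scaling 7 did (1 higher and 6 lower), whereas with FPKM 5 did (0 higher and 5 lower), so that the call of *Cirbp* and a lower call were lost. No called change of a single gene reversed its sign. The alternatives for the order of libraries with opposite directions, for calls against the control of the other agent, between the controls, and between the 6 hour libraries were added after the data were seen. No paired analysis was possible because each group has 1 library, and no library could be left out for the same reason. Depth limits *Hspa1a* and *Hspa1b*, and the other 8 genes had an average coverage of at least 9.06 in every library.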

Other observations

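The 31 genes with the sevoflurane library above and the desflurane library below both controls, each gap above 25%, contained other genes besides *Hspa8*, *Hsph1*, and *Hsp90aa1*. The co-chaperones *Chordc1* and *Stip1* were among them. Others, named after their values were seen, encode enzymes and transporters of amino acid and one-carbon metabolism, as *Mthfd2*, *Psph*, *Slc1a4*, *Slc7a11*, and *Chac1*. *Mthfd2*, the mitochondrial folate enzyme, was at 3.53 and 3.46 TPM in the controls of sevoflurane and desflurane, 18.8 TPM with sevoflurane, and 1.42 TPM with desflurane. *Chac1*, which degrades glutathione, was at 2.36 and 3.26 TPM in the controls, 6.89 TPM with sevoflurane, and 1.26 TPM with desflurane. The replication genes *Mcm2*, *Mcm5*, *Mcm6*, *Pold1*, and *Chek1* were also among the 31. *Mcm2* was at 6.2 and 5.0 TPM in the controls, 8.92 TPM with sevoflurane, and 3.20 TPM with desflurane. *Otub2*, which encodes a deubiquitinase and was near *Hsph1* in pattern, was at 11.6 and 16.7 TPM in the controls, 25.9 TPM with sevoflurane, and 6.38 TPM with desflurane.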
